A study of Homo sapiens with 6 samples.

Results

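The transcripts described here are the annotated long non-coding RNAs (lncRNAs) that carry no name other than an Ensembl number. They were the table entries whose gene ID is of the lncRNA type in GENCODE release 44 and has the Ensembl ID itself as its gene name. These were 11423 of 81818 transcripts, or 14.0%, and they belonged to 8769 of 30061 gene IDs. An entry is a gene ID with the span of a transcript, and 92.8% of these spans matched a transcript of GENCODE 44 on GRCh38. Most genes, 7491, had 1 transcript, so the values of a gene were added over its transcripts into a gene sum. The entries of a coding gene were mostly its non-coding transcripts, so its gene sum here is not a measure of its mRNA.

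The data were RNA sequencing libraries of A549/DDP and A549 cells, 3 of each line, with expression levels in FPKM (fragments per kilobase of transcript, scaled to the fragments mapped in the library). A549 is an established epithelial line of human lung adenocarcinoma that the labels call sensitive to cisplatin (DDP). A549/DDP, which the labels also spell A549/DPP, is its cisplatin-resistant derivative and was kept in medium with 1 µg/mL DDP, whereas A549 was kept without the drug. Both lines were at passages 6 to 8, and RNA was depleted of ribosomal RNA. Each line is a single line and the labels do not say whether its libraries come from separate cultures, so the p values rest on the spread among these libraries alone, which may be technical. Resistance and ongoing exposure to the drug cannot be told apart, nor can fewer cells that express a gene and less RNA per cell.

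An lncRNA is a transcript without a recognised open reading frame. Its position relative to coding genes is a usual way to group it: some lie within a gene on the same strand, some run antisense to a gene, some start back to back with a coding gene from a shared promoter region, and others stand alone between genes. Many lncRNAs are expressed at low levels and in few cell types, some act in cis on a neighbouring gene, and others have been described as decoys for microRNAs (competing endogenous RNA), which is the relation the study was designed around. For nearly all lncRNAs described here no function is on record in the sources used, so each is described by its position, its structure and its nearest coding gene.

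The sequences around the start of 3 unnamed lncRNAs with clear differences are shown because they are among the members the comparison turns on. Each window covers 250 bases before and 50 bases after the start of the transcript as the tables give it, read 5′ to 3′ along the transcript from hg38 (GRCh38), with the bases of that transcript in capitals. Lower case does not mean untranscribed. Another transcript of ENSG00000251257 starts further upstream, at chr5:38468339, and the window of ENSG00000260108 lies within the coding gene CYB5B on the same strand. In A549/DDP cells, ENSG00000249166 and ENSG00000260108 were higher and ENSG00000251257 was lower.
ENSG00000249166 (chr5:10494045-10494344, minus strand): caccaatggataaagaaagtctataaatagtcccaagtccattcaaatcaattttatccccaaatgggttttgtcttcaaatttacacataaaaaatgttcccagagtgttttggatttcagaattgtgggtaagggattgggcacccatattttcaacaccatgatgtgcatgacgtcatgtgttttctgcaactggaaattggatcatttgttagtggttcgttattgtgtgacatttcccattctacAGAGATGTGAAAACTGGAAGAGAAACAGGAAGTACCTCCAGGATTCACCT
ENSG00000260108 (chr16:69463594-69463893, plus strand): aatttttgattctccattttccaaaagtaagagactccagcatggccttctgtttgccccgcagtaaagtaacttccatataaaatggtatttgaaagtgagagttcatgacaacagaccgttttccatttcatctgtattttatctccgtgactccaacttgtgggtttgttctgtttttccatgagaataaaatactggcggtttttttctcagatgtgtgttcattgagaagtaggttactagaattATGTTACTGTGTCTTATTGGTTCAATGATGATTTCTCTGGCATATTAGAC
ENSG00000251257 (chr5:38468258-38468557, minus strand): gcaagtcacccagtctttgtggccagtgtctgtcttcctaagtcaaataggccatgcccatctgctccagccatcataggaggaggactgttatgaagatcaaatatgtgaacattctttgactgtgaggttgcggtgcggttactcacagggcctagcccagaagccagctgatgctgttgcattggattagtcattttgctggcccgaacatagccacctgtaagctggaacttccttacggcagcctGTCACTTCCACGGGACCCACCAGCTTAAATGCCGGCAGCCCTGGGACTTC
These windows held few CpG dinucleotides, between 2 and 6 each, and their GC content was between 36.3% and 52.3%. Over the 962 unnamed lncRNA genes tested, the median was 4 CpG and 47.3% GC, against 14 CpG and 58.7% GC over 35116 RefSeq promoters (GRCh38.p14) of the same length. The divergent members were unlike the others in this respect, with a median of 28 CpG and 67.5% GC over 30 genes.

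In all, 4 short motifs were searched on both strands of these windows. The TATA box (TATAAA) was found in 17.6% of the 962 windows and in 11.5% of RefSeq promoters, the CCAAT box (CCAAT) in 32.3% and 34.6%, the AP-1 motif (TGANTCA) in 7.59% and 7.71%, and the core of the antioxidant response element (TGACNNNGC) in 11.6% and 13.3%. The last pair overlap where a site reads TGACTCAGC, as at bases -114 to -106 of ENSG00000224417, where the start is base 0. Of the 17 called genes described below, 5 held TATAAA, 8 held CCAAT, 4 held TGANTCA and 2 held TGACNNNGC. TATAAA stood at bases -31 to -26 in ENSG00000257891 alone among these 17, and the window of ENSG00000249166 held it at -229 to -224. A match is a string of letters and not a site of binding.

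Expression of the unnamed lncRNAs was sparse. Of the 11423 transcripts, 7451 (65.2%) were listed at 0 in all 6 libraries, against 58.7% of the 14254 transcripts of named lncRNAs and 34.8% of all transcripts. The level needed for testing was 0.5 FPKM in 3 or more of the 6 libraries, which 1018 transcripts (8.91%) and 962 gene sums reached, and 55 transcripts averaged 5 FPKM or more. Unnamed lncRNAs made up 4.97% to 5.08% of the summed FPKM in the A549/DDP libraries and 4.37% to 4.94% in the A549 libraries. Their sums were 3241 to 3489 FPKM in A549/DDP and 2536 to 3094 FPKM in A549. Much of this was ENSG00000276232, which lies within a small RNA gene. Without it the sums were 2112 to 2412 FPKM in A549/DDP and 1687 to 2136 FPKM in A549, so that the lines overlapped. Those that passed the filter were often unspliced: 45.8% of the tested transcripts with an annotated structure had a single exon, against 18.4% of all unnamed lncRNA transcripts, 8.40% of those at 0 in all libraries, and 9.47% of the tested named lncRNA transcripts.

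The libraries of a line resembled each other more than those of the other line. Over the unnamed lncRNA transcripts tested, the correlation of log2(FPKM + 1) was 0.861 to 0.890 within A549/DDP, 0.778 to 0.812 within A549 and 0.620 to 0.701 between the lines. The filter admits transcripts that reach it in a single line alone, so these correlations are partly set by it. The median SD over 3 libraries was 0.21 in A549/DDP and 0.29 in A549 on the log2(FPKM + 1) scale. The epithelial markers KRT8, KRT18, KRT19, EPCAM and CDH1 summed to 1798 to 2391 FPKM in A549/DDP and 477 to 678 FPKM in A549, mostly from keratins KRT8 and KRT18. CDH1 was at 7.47 to 28.2 FPKM in A549/DDP and 2.33 to 4.19 FPKM in A549. KRT19 was at 0.0820 to 0.280 FPKM in A549/DDP and 0.279 to 0.470 FPKM in A549. EPCAM was at 0.0331 to 1.64 FPKM in A549/DDP and 0.160 to 1.93 FPKM in A549. The ranges of KRT19 and of EPCAM overlapped between the lines. The blood cell markers listed, 2 of 3, summed to 0 FPKM in A549/DDP and at most 0.112 FPKM in A549, PECAM1 and VWF of endothelial cells were at 0, and the fibroblast markers COL1A1, DCN and LUM summed to 0.365 to 0.706 FPKM in A549/DDP and 0.227 to 0.464 FPKM in A549.

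A small group of unnamed lncRNAs differed between the lines beyond the spread between libraries. Among gene sums, 12 were called higher in A549/DDP (limma, adjusted p under 0.01 and a log2 fold change over 1) and 5 were called lower. These were 1.25% and 0.520% of the 962 tested, close to or below the background of 1.39% and 0.963% of all 10591 gene sums tested. In either direction this was 1.77%, against 2.35% of all gene sums. Among single transcripts, 5 were called higher and 1 lower, or 0.491% and 0.0982% of 1018, against 0.353% and 0.198% of all 20663 transcripts tested (0.589%, against 0.552%, in either direction). An unadjusted p under 0.05 by limma was found for 278 gene sums (28.9%, against 27.1% of all gene sums) and 263 transcripts (25.8%, against 21.7%). The 3 A549/DDP libraries did not overlap the 3 A549 libraries in 353 gene sums (36.7%, against a background of 32.2%), of which 245 were higher (25.5%, against 21.8%) and 108 lower (11.2%, against 10.4%) in A549/DDP. A gene that reaches the filter only in the 3 libraries of a single line is apart by construction. These shares are thus partly set by the filter.

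The bulk of the unnamed lncRNAs lay slightly above zero in fold change, as did the other genes. The median log2 fold change of their gene sums was 0.19, and that of all gene sums was 0.17. After median-ratio scaling of the libraries these medians were 0.05 and 0.01, and after quantile normalization both were 0.01. The calls then split into 8 higher and 8 lower gene sums by median-ratio scaling, and 8 higher and 10 lower by quantile normalization. The plot of level against fold change shows that most of the called genes have low means.

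**Figure D1:**
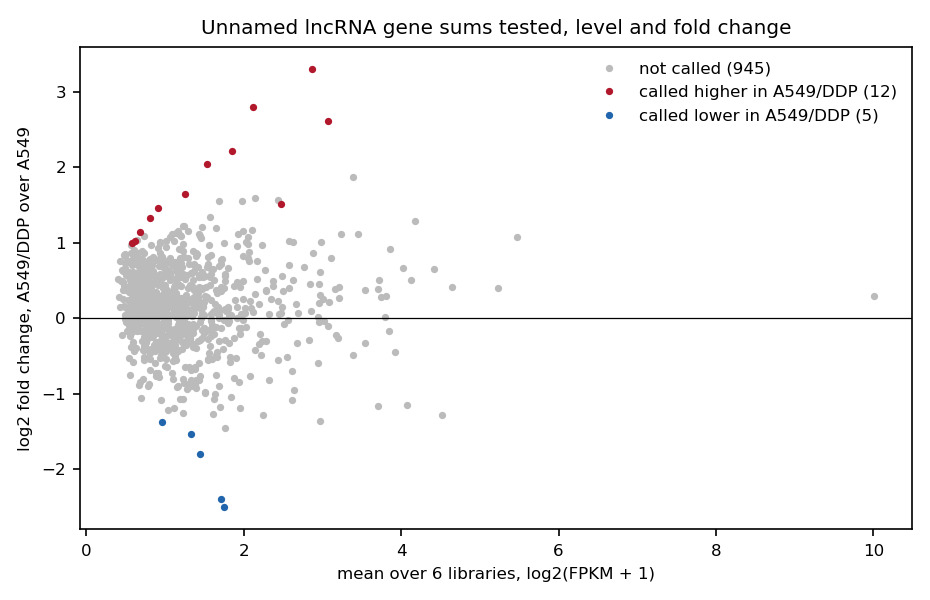
Log2 fold change (A549/DDP over A549, vertical axis) against the mean over 6 libraries as log2(FPKM + 1) (horizontal axis) for the 962 unnamed lncRNA gene sums tested, each a point. The 12 called higher (red) reach 3.31 and the 5 called lower (blue) reach -2.51. The latter is ENSG00000250509, listed at 0 in every A549/DDP library, so the size of its fold change depends on the pseudocount. The point at the far right is ENSG00000276232.

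The strongest rise was that of ENSG00000249166, a gene of chromosome 5 with a spliced length of 415 bases at chr5:10493291-10494094 on the minus strand. Its gene sum was 11.5, 11.9 and 13.3 FPKM in the A549/DDP libraries, against 0.204, 0.364 and 0.452 FPKM in the A549 libraries. All A549/DDP libraries stood far above all A549 libraries, with means of 12.2 ± 0.972 and 0.340 ± 0.125 FPKM (SD, n = 3 each), a ratio of 36.0. The log2 fold change was 3.31 ± 0.22 (SE, limma, adjusted p = 0.000377). Its nearest coding gene, ROPN1L, which encodes a sperm protein related to ropporin, lies 21262 bases away on the other strand. ROPN1L was at 0.435, 0.256 and 0.364 FPKM in A549/DDP and 0.800, 0.639 and 0.572 FPKM in A549, and it missed the test (log2 fold change -0.31, limma adjusted p = 0.277).

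ENSG00000276740 is an unspliced transcript of 691 bases on chromosome 13 (chr13:107465984-107466674, minus strand) within the span of NALF1, which encodes an accessory factor of the sodium leak channel NALCN, on the same strand. Its levels were 6.66, 5.11 and 8.00 FPKM in A549/DDP, against 0, 0 and 0.244 FPKM in A549. Thus 2 of the A549 libraries were listed at 0, and the other was far below the lowest A549/DDP library. The log2 fold change was 2.80 ± 0.25 (limma, adjusted p = 0.000864).

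ENSG00000231683 runs on the same strand as GCLC, the gene for the catalytic subunit of glutamate-cysteine ligase, the rate-limiting enzyme of glutathione synthesis. The gene sum over its 7 transcripts was 13.6, 13.04 and 13.6 FPKM in A549/DDP, against 0.855, 1.67 and 1.62 FPKM in A549. The groups lay far apart, with a ratio of means of 9.71 and a log2 fold change of 2.62 ± 0.24 (limma, adjusted p = 0.00096). Most of this came from 1 transcript, chr6:53561920-53616994, at 9.47, 9.51 and 8.70 FPKM in A549/DDP and 0, 1.12 and 0.197 FPKM in A549. Its start lies 24 bases upstream of the outermost start annotated for GCLC. The listed GCLC transcripts summed to 19.6, 12.2 and 11.96 FPKM in A549/DDP and 16.5, 6.34 and 11.5 FPKM in A549, so that the groups overlapped (log2 fold change 0.38, limma adjusted p = 0.538). Whether GCLC mRNA changed cannot be read from this sum. Of the 3994 exonic bases of the lncRNA, 529 lie in exons of GCLC.

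ENSG00000260108 cannot be separated from its neighbour by position. All of its 2421 bases lie within exons of CYB5B, which encodes the cytochrome b5 of the outer mitochondrial membrane, of the same strand. Its levels were 3.39, 3.63 and 3.95 FPKM in A549/DDP, against 0.327, 0.0315 and 0.0508 FPKM in A549, a log2 fold change of 2.04 ± 0.22 (limma, adjusted p = 0.00164). The CYB5B sum was also higher in every A549/DDP library, with 14.9, 15.6 and 15.9 FPKM, against 7.21, 5.79 and 5.53 FPKM in A549, and missed the threshold (log2 fold change 1.20, limma adjusted p = 0.0155). Reads of the shared bases could have been assigned to either gene.

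Other genes called higher that overlap a coding gene on the same strand were ENSG00000274964 within BICD1, which encodes an adaptor of the dynein motor, ENSG00000224417 within DACT2, a regulator of Wnt signalling, and ENSG00000272742, which overlaps an end of SLC23A1, a vitamin C transporter. ENSG00000274964 was at 2.57, 2.83 and 2.44 FPKM in A549/DDP, against 0.0551, 0.0964 and 0.320 FPKM in A549 (log2 fold change 1.65, limma adjusted p = 0.00312). BICD1 overlapped between the lines (log2 fold change 0.27, limma adjusted p = 0.584). ENSG00000272742 was at 0.958, 0.944 and 1.11 FPKM in A549/DDP and listed at 0 in all A549 libraries. ENSG00000272742 was the only one of the 12 whose coding neighbour was called too: SLC23A1 was at 3.48, 2.29 and 3.81 FPKM in A549/DDP, against 0.396, 0.212 and 0.522 FPKM in A549 (log2 fold change 1.59, limma adjusted p = 0.00728). Not every neighbour could be called: over the 17 called genes it was tested for 10 and not for 7, NALF1 and DACT2 among the latter. All 664 exonic bases of ENSG00000272742 lie in exons of coding genes on the opposite strand. The library kit keeps the strand, but whether the quantification used it is not stated, so reads of the strands may not be separated there. ENSG00000224417 was at 1.15, 1.12 and 0.929 FPKM in A549/DDP, against 0.0412, 0 and 0 FPKM in A549 (limma, adjusted p = 0.00761).

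Near coding genes without overlapping them lay ENSG00000178107 and ENSG00000253217. ENSG00000178107, 3321 bases from the transcription factor gene ZNF219, was at 5.78, 3.11 and 5.99 FPKM in A549/DDP, against 0, 0.528 and 0.281 FPKM in A549 (log2 fold change 2.21 ± 0.29, limma adjusted p = 0.00432). Its groups were apart, and A549/DDP replicate 2 was the lowest of its line. ENSG00000253217 on chromosome 8 starts 1377 bases from RNF19A, a ubiquitin ligase gene, and was at 1.60, 1.57 and 1.36 FPKM in A549/DDP and listed at 0 in all A549 libraries (limma, adjusted p = 0.00327). RNF19A had 7.91, 6.05 and 8.26 FPKM in A549/DDP and 4.17, 2.41 and 3.73 FPKM in A549, apart but short of the threshold (log2 fold change 0.93, limma adjusted p = 0.0589).

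Of the genes called higher that stand alone, ENSG00000261786 on chromosome 3 had the highest level in A549. It is a transcript of 5067 bases, 119521 bases from TOPAZ1, a gene of germ cells, and was at 7.78, 5.87 and 8.07 FPKM in A549/DDP, against 1.46, 2.27 and 1.91 FPKM in A549 (log2 fold change 1.51 ± 0.24, limma adjusted p = 0.00899). ENSG00000253666, on chromosome 8 beside ANKRD46, was at 1.55, 1.44 and 2.31 FPKM in A549/DDP and at 0 in all A549 libraries (limma, adjusted p = 0.00416). ENSG00000257891, on chromosome 14 in the neighbourhood of POTEM, was at 0.885, 1.21 and 1.57 FPKM in A549/DDP and at 0 in all A549 libraries (limma, adjusted p = 0.00857). For the 4 genes listed at 0 throughout A549 no fold change is given, since its size would depend on the pseudocount.

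The 5 genes called lower in A549/DDP included 3 of chromosome 5. ENSG00000250509, 51139 bases from CNOT6, which encodes a deadenylase of the CCR4-NOT complex, was at 0 in each A549/DDP library, against 4.71, 3.97 and 5.46 FPKM in A549 (limma, adjusted p = 0.000794). It was also the only transcript called lower, and its span in the tables, chr5:180441559-180443238, matched no GENCODE 44 transcript of the gene. CNOT6 was at 1.52, 1.75 and 1.72 FPKM in A549/DDP and 2.33, 1.71 and 5.50 FPKM in A549 (limma, adjusted p = 0.338).

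ENSG00000251257 is antisense to EGFLAM, the gene of the matrix protein pikachurin. It was at 0, 0 and 0.154 FPKM in A549/DDP, against 3.98, 4.84 and 4.73 FPKM in A549 (log2 fold change -2.39 ± 0.21, limma adjusted p = 0.000864). EGFLAM was listed at 0 in all but 1 library, where it was at 0.0171 FPKM. The antisense transcript was measured in A549 where the listed EGFLAM transcripts were at 0, which does not show that EGFLAM mRNA was absent.

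ENSG00000250697, 96512 bases from NPR3, the clearance receptor of natriuretic peptides, was at 0.360, 0.277 and 0 FPKM in A549/DDP, against 3.30, 3.63 and 2.70 FPKM in A549 (log2 fold change -1.80, limma adjusted p = 0.00333). NPR3 had the opposite sign (log2 fold change 0.65) and missed the test (limma, adjusted p = 0.143). ENSG00000228280, within LRMDA, was at 0.273, 0.102 and 0.485 FPKM in A549/DDP, against 2.33, 3.60 and 2.33 FPKM in A549 (log2 fold change -1.54, limma adjusted p = 0.00797). LRMDA, which encodes a leucine-rich protein of melanocyte differentiation, fell as well, to 0.193, 0.584 and 0.590 FPKM in A549/DDP, against 3.91, 5.01 and 3.32 FPKM in A549 (log2 fold change -1.80, limma adjusted p = 0.00483). ENSG00000267279, 29967 bases from the cadherin gene CDH20, was at 0.144, 0 and 0.108 FPKM in A549/DDP, against 1.73, 1.60 and 2.15 FPKM in A549 (log2 fold change -1.38, limma adjusted p = 0.00455). The listed transcript of CDH20 was at 0 in all libraries.

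**Figure D2:**
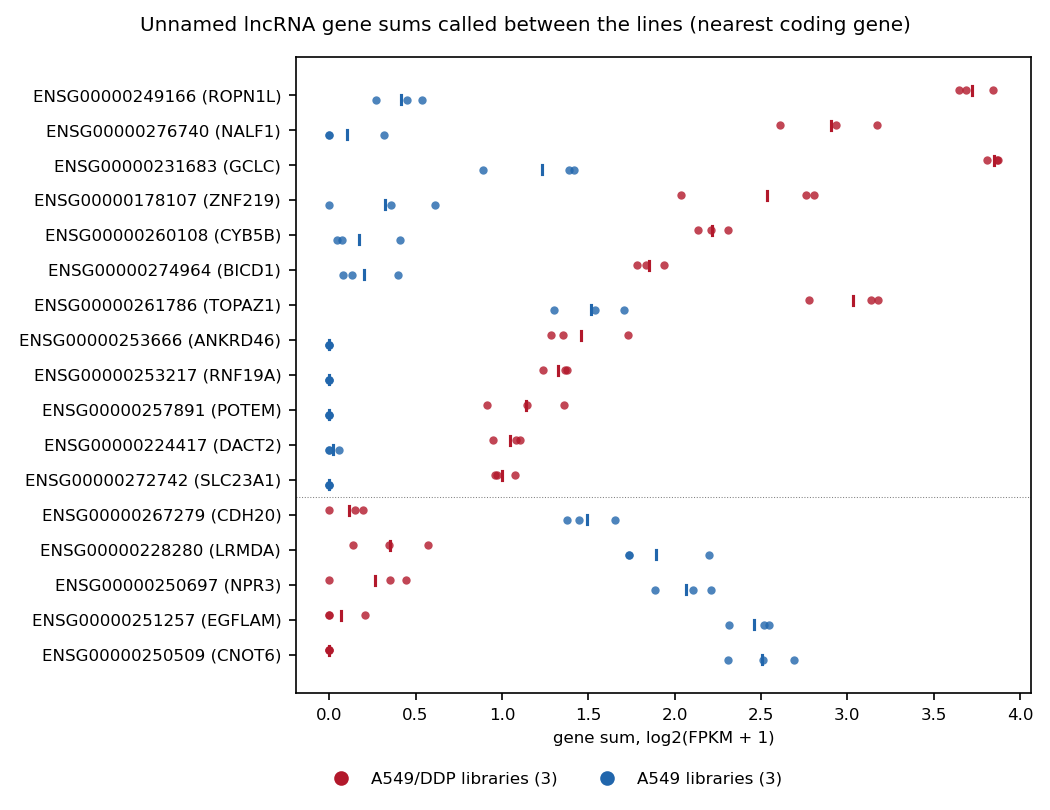
Gene sums, as log2(FPKM + 1), of the 17 called unnamed lncRNA genes, with the nearest coding gene in brackets. Points are the 3 libraries of A549/DDP (red, upper of each pair of rows) and of A549 (blue), short bars are means, the dotted line parts the 12 called higher from the 5 called lower, and the lines do not overlap in any of the 17 genes.

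Leaving out a library ended many of these calls. With the level filter applied anew, ENSG00000249166 and ENSG00000276740 kept their call without any 1 A549 library but did not pass the filter without an A549/DDP library. ENSG00000231683 lost its call without A549/DDP replicate 3 (limma, adjusted p = 0.0118). ENSG00000250509 lost it without A549/DDP replicate 3 (limma, adjusted p = 0.0109), ENSG00000251257 lost it without A549/DDP replicate 2 or 3 (highest limma adjusted p = 0.0109), and neither passed the filter without an A549 library. With the same genes tested, an alternative chosen after seeing the data, 5 of the 17 kept their call without any 1 of the 6 libraries, namely ENSG00000249166, ENSG00000276740, ENSG00000231683, ENSG00000250509 and ENSG00000251257, with adjusted p values of 0.00287 to 0.00963 by limma. For 10 of the 17 the call ended whichever library was left out, and all 6 calls of single transcripts ended likewise, with adjusted p values of 0.0129 to 0.0440 by limma.

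Several well expressed unnamed lncRNAs were lower in all A549/DDP libraries than in all A549 libraries and missed the threshold. ENSG00000272405, unspliced and antisense to the 5′ part of BCAN, the gene of the brain proteoglycan brevican, was at 11.6, 12.7 and 12.6 FPKM in A549/DDP, against 35.9, 28.1 and 30.5 FPKM in A549 (log2 fold change -1.28 ± 0.22, limma adjusted p = 0.0114). The listed transcript of BCAN was at 0 in all libraries. ENSG00000272831, antisense to RABGEF1, which encodes an activator of the GTPase RAB5, was at 9.72, 10.7 and 8.09 FPKM in A549/DDP, against 24.5, 18.4 and 23.8 FPKM in A549 (log2 fold change -1.14, limma adjusted p = 0.0228). Here 647 of its 814 bases lie in exons of RABGEF1. ENSG00000283959, whose annotated gene span starts 516 bases from KLF10, a transcription factor gene induced by TGF-β, was at 1.23, 1.56 and 1.29 FPKM in A549/DDP, against 4.41, 4.59 and 4.16 FPKM in A549 (limma, adjusted p = 0.0154). Its listed transcript starts further from KLF10, at chr8:102656464. The others were ENSG00000249685 beside KLHL5, ENSG00000260586 within THSD4, ENSG00000276445 near the kinase gene DYRK1B, and ENSG00000277144 antisense to the cyclin gene CCNB2, with log2 fold changes of -1.45, -1.28, -1.27 and -1.17 and limma adjusted p values of 0.0275, 0.0170, 0.0236 and 0.0517.

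None of the 10 unnamed lncRNAs of highest level was called. ENSG00000276232 stood apart from all others, at 1201, 1130 and 1078 FPKM in A549/DDP and 967, 959 and 849.7 FPKM in A549 (log2 fold change 0.30, limma adjusted p = 0.304). Its 248 bases lie wholly within the span of SCARNA10, a small Cajal body RNA gene, inside the condensin gene NCAPD2, so its level cannot be told apart from that of the small RNA. Of 3972 unnamed lncRNA transcripts above 0 in some library, 75 lay on a small RNA gene of their strand, and in 3 the small RNA covered 50% or more of the span (SCARNA10, RNU11 and SCARNA2).

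Next in level was ENSG00000282304, which starts back to back with MTLN, the gene of the mitochondrial micropeptide mitoregulin, with 171 bases between the starts. It was at 58.4, 60.0 and 58.9 FPKM in A549/DDP, against 25.2, 27.8 and 29.5 FPKM in A549, with means of 59.1 ± 0.826 and 27.5 ± 2.15 FPKM (SD, n = 3 each). The A549/DDP libraries lay closely together at more than 2 times the A549 level, a ratio of 2.15, but the result missed the threshold (log2 fold change 1.08 ± 0.20, limma adjusted p = 0.0170). The interval between the starts is shown on the plus strand of hg38, with the first 50 bases of MTLN, as its reverse complement, in capitals at the left and those of the lncRNA in capitals at the right. It has a GC content of 75.2% and 33 CpG in 270 bases.
ENSG00000282304 (chr2:110245371-110245640, plus strand): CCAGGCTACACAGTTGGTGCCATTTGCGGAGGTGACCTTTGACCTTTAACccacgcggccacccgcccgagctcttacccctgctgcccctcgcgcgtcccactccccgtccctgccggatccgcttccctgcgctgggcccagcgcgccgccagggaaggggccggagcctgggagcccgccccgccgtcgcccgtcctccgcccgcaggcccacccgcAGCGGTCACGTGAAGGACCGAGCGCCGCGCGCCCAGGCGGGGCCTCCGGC
MTLN itself was not analysed here.

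Of the remaining highly expressed members, ENSG00000273420 was higher in all A549/DDP libraries and missed the threshold, at 20.8, 28.8 and 23.0 FPKM in A549/DDP, against 6.74, 15.4 and 7.34 FPKM in A549 (log2 fold change 1.29, limma adjusted p = 0.0452). All of its 511 bases lie in exons of LRP3, a gene of the LDL receptor family, whose own sum overlapped between the lines (log2 fold change 0.42, limma adjusted p = 0.540). ENSG00000273760, ENSG00000276850, ENSG00000259735, ENSG00000187951 and ENSG00000277693 had log2 fold changes of 0.40 to 0.67 and limma adjusted p values of 0.109 to 0.276. Of the 5637 exonic bases of ENSG00000187951, 5588 lie in exons of a coding gene without a name (ENSG00000284906).

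Position relative to the nearest coding gene went with how often an unnamed lncRNA was measured. Of the 8769 genes, 1296 overlapped a coding gene on the same strand (sense), 3288 overlapped one only on the opposite strand (antisense), 216 were divergent (starts at most 1 kb apart, head to head), 674 were near (at most 5 kb) and 3295 were far. All 6 libraries were at 0 in 25.8% of sense, 64.8% of antisense, 40.3% of divergent, 47.2% of near and 76.6% of far genes. The sense class accordingly held 458 of the 962 genes tested, against 226 antisense, 30 divergent, 82 near and 166 far genes. Where a gene of the sense class lies in an intron or an exon of its host, reads of the host's unspliced or mature RNA cannot be told apart from its own.

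Fold changes by class lay close to each other. The median log2 fold change was 0.24 for sense, 0.08 for antisense, 0.18 for divergent, 0.16 for near and 0.15 for far genes, against 0.17 over all gene sums, and no test of the classes was made. Calls fell into sense (6 higher, 1.31%, and 1 lower, 0.218%), near (2 higher, 2.44%) and far genes (4 higher, 2.41%, and 3 lower, 1.81%). Antisense genes had 1 lower (0.442%) and divergent genes none. Over all gene sums 1.39% were called higher and 0.963% lower, and with so few calls no pattern of the classes is drawn. Of 226 antisense genes tested, 43 (19.0%) were apart between the lines upward and 37 (16.4%) downward, and of 458 sense genes 131 (28.6%) were apart upward and 29 (6.33%) downward, beside 21.8% and 10.4% of all gene sums. Named lncRNAs had medians of 0.22 for sense and 0.00 for antisense genes.

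**Figure D3:**
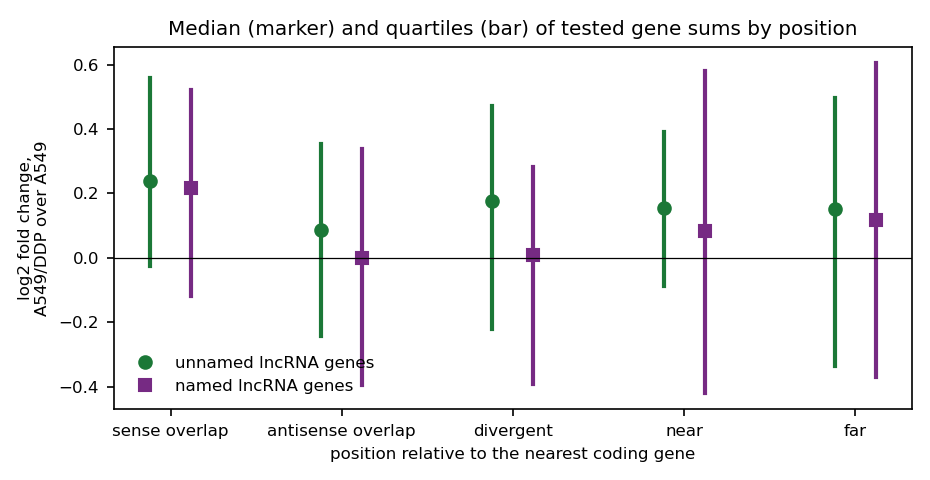
Median (marker) and quartiles (bar) of the log2 fold change (A549/DDP over A549) of tested gene sums by position relative to the nearest coding gene, for unnamed (green circles) and named (purple squares) lncRNA genes. Medians of the unnamed lie between 0.08 (antisense) and 0.24 (sense), and the quartiles of all classes overlap.

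The relation between an lncRNA and its neighbour was described by position class. Over the 597 pairs in which both the unnamed lncRNA and its nearest coding gene were tested, the log2 fold changes had a Pearson r of 0.29 and a Spearman rho of 0.24. The values were 0.41 and 0.32 over 344 sense pairs, 0.66 and 0.57 over 19 divergent pairs, 0.52 and 0.38 over 44 near pairs, 0.16 and 0.19 over 69 far pairs, and -0.01 and -0.02 over 121 antisense pairs. These are descriptions across genes, which are not independent replicates, and both genes of a pair share the 6 libraries. The coding sums are mostly of non-coding transcripts, so r does not compare an lncRNA with an mRNA. In sense pairs that share no exonic base r was 0.45 (269 pairs), and in those that do it was 0.34 (75 pairs). Antisense pairs of named lncRNAs had an r of 0.28. When a library was left out the level filter was applied anew, so fewer pairs were compared. In the antisense class r was then between -0.11 and 0.03. In the far class it was between 0.21 and 0.32, above the main value whichever library was left out. That class then held 56 to 61 pairs in place of 69, so the rise is not that of the same pairs. In the near class r was between 0.39 and 0.58 and rho between 0.17 and 0.42. The lowest rho there was without A549/DDP replicate 1, and it was 0.23 without A549 replicate 3.

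**Figure D4:**
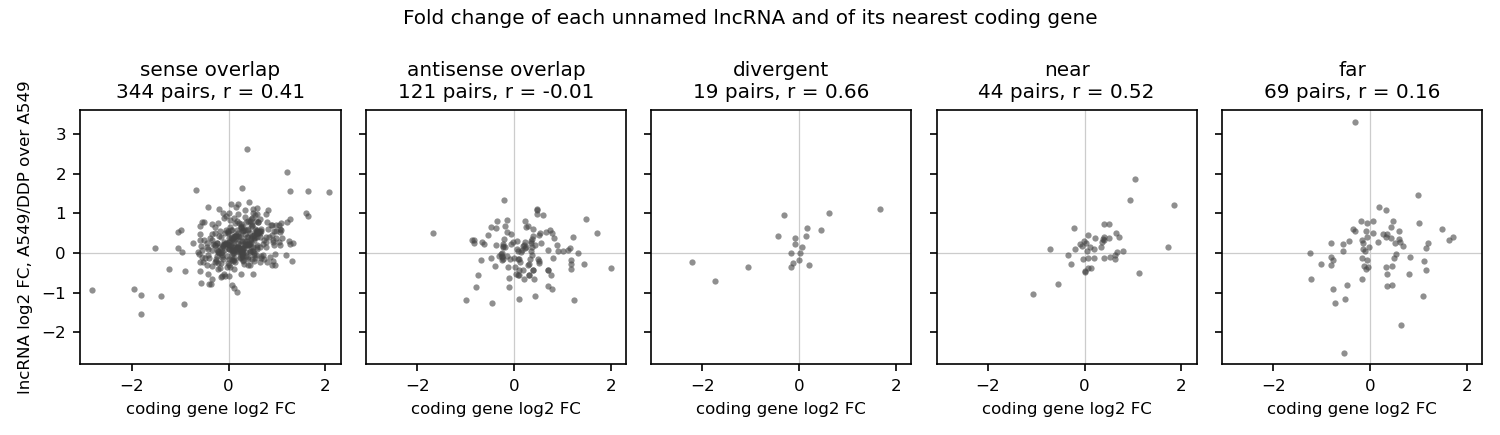
Log2 fold change (A549/DDP over A549) of each unnamed lncRNA gene sum (vertical axis) against that of its nearest coding gene (horizontal axis), a panel for each position class and a point for each pair. Points spread along the diagonal in the sense panel (344 pairs, r = 0.41) and show no slope in the antisense panel (121 pairs, r = -0.01).

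The coding neighbour was called in 15 of the 597 pairs, and the examples below were chosen after their values were seen. In 12 of the 15 the lncRNA had the sign of its neighbour, as it did in 369 (61.8%) of the 597, and 2 of the 15 lncRNAs were called (those of LRMDA and SLC23A1 above), against 2.35% of all gene sums. With 15 pairs these counts are a description and were not tested. ENSG00000251194 within CD44, the hyaluronan receptor, was at 0.698, 0.505 and 0.737 FPKM in A549/DDP, against 2.48, 2.73 and 1.40 FPKM in A549, with log2 fold changes of -0.94 for the lncRNA (limma, adjusted p = 0.0497) and -2.81 for CD44. ENSG00000274213, divergent to the ubiquitin ligase gene TRIM25, had a log2 fold change of -0.71 (limma, adjusted p = 0.126) and TRIM25 one of -1.74. ENSG00000233785, divergent to SAT1, a gene of polyamine catabolism, had -0.23 (limma, adjusted p = 0.566) and SAT1 had -2.22. The groups of ENSG00000233785 overlapped, so no fall of this lncRNA was seen. The signs were opposite at AKR1C2, S100A11 and RBFOX3.

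Some unnamed lncRNAs lie at genes of drug metabolism and of the responses to oxidative stress and to DNA damage. Of the study's 17 genes tied to pathways of cisplatin resistance, 10 were the nearest coding gene of 11 unnamed lncRNAs, of which 8 were at 0 in all libraries and 1 was tested. Of 12 targets of the transcription factor NRF2, 6 had 7 unnamed lncRNAs, of which 4 were tested and 1 was called (the one at GCLC), beside a background of 2.35% of all gene sums called in either direction. Of 12 targets of p53, 2 had 2 unnamed lncRNAs, of which 1 was tested. The study drew its 17 genes from these samples, so that they are no independent evidence of a direction.

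Within MGST1, the gene of a microsomal glutathione transferase, ENSG00000256564 was at 4.79, 3.13 and 3.46 FPKM in A549/DDP, against 0.982, 0.727 and 0.237 FPKM in A549 (log2 fold change 1.55 ± 0.27, limma adjusted p = 0.0128). MGST1 was at 149, 226 and 192 FPKM in A549/DDP, against 25.5, 79.3 and 40.7 FPKM in A549 (log2 fold change 2.07, limma adjusted p = 0.0175). Both were apart between the lines in the same direction and both missed the threshold.

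Within MDM2, which encodes the ubiquitin ligase of p53, ENSG00000256325 was at 4.67, 4.26 and 5.63 FPKM in A549/DDP, against 0.428, 1.37 and 1.30 FPKM in A549 (log2 fold change 1.56 ± 0.28, limma adjusted p = 0.0138). MDM2 was at 14.0, 11.9 and 16.8 FPKM in A549/DDP, against 3.74, 8.78 and 4.33 FPKM in A549 (log2 fold change 1.27, limma adjusted p = 0.0445). Neither this lncRNA nor the one in MGST1 shares an exonic base with its host.

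The 3 tested antisense lncRNAs at NRF2 targets had the opposite sign to their neighbours. Over all 121 antisense pairs the sign was the same in 60 (49.6%), so no pattern is drawn from these 3. ENSG00000257732, antisense to the thioredoxin reductase gene TXNRD1, was at 0.560, 0.442 and 0.415 FPKM in A549/DDP, against 2.26, 1.98 and 2.07 FPKM in A549 (log2 fold change -1.08 ± 0.20, limma adjusted p = 0.0155), whereas TXNRD1 had a log2 fold change of 0.44 (limma, adjusted p = 0.249). ENSG00000224251, antisense to AKR1C2, an aldo-keto reductase gene, was at 0.561, 0.461 and 0.334 FPKM in A549/DDP and 1.28, 1.02 and 0.420 FPKM in A549, with overlapping groups, while AKR1C2 rose to 305, 224 and 268 FPKM in A549/DDP, against 63.8, 56.0 and 75.3 FPKM in A549 (log2 fold change 2.01, limma adjusted p = 0.00196). ENSG00000261602, antisense to the quinone reductase gene NQO1, was at 0.0610, 0.0626 and 0.701 FPKM in A549/DDP and 1.24, 1.10 and 0 FPKM in A549 (log2 fold change -0.43, limma adjusted p = 0.451). All of its 575 exonic bases lie in exons of NQO1 on the opposite strand, where reads of the strands may not be separated. Of these 3, the TXNRD1 antisense alone had groups that did not overlap, and none passed the test. The lncRNAs beside CBR3, GGT1 and HMOX1 averaged below 0.3 FPKM in each line and were not tested.

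**Figure D5:**
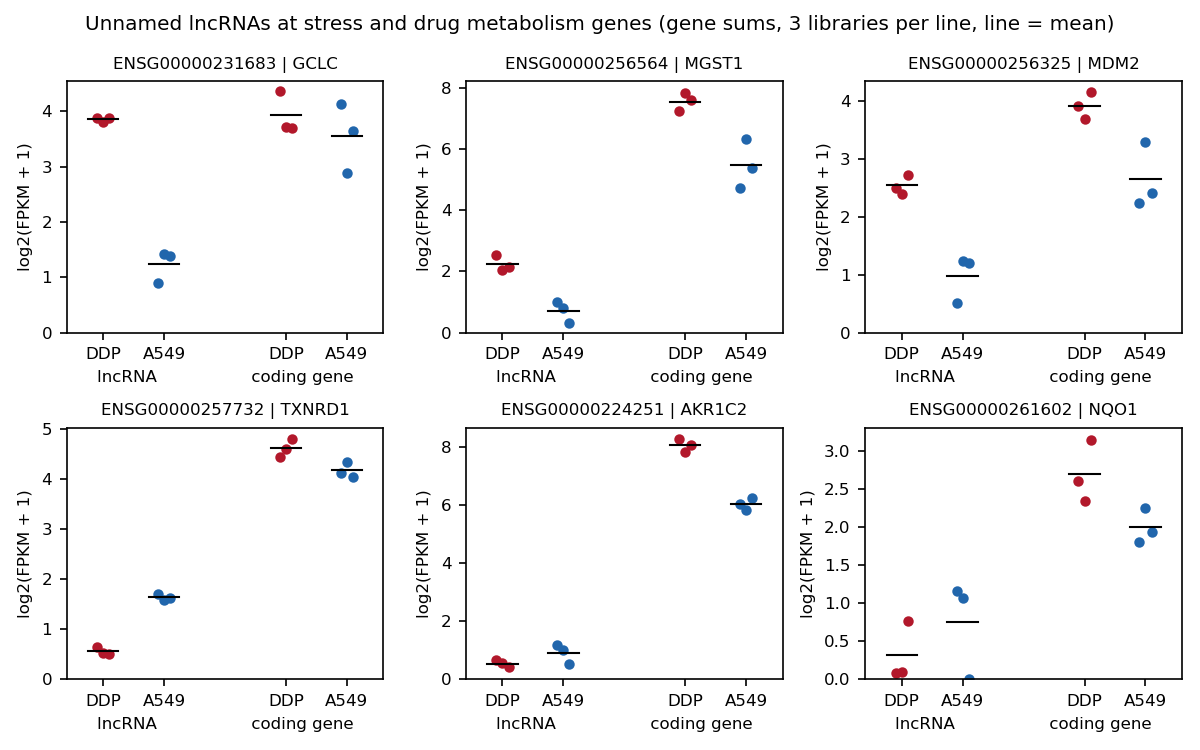
Gene sums, as log2(FPKM + 1), of 6 unnamed lncRNAs (left of each panel) and of the coding gene they overlap (right), with 3 libraries of A549/DDP (red, marked DDP) and of A549 (blue) and a line at the mean. The lncRNA at GCLC is apart between the lines while GCLC overlaps, and the antisense lncRNA at TXNRD1 is lower in A549/DDP while TXNRD1 is higher.

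Since the study was built around lncRNAs as decoys of microRNAs, matches to the seeds of 4 microRNAs named in the study were counted in the annotated spliced sequences of 945 tested unnamed lncRNA transcripts. The mature sequences, from RefSeq, are given for the pair the study followed, with the seed (bases 2 to 8) in capitals.
hsa-miR-432-5p: uCUUGGAGuaggucauugggugg
hsa-miR-665: aCCAGGAGgcugaggccccu
The 7 bases complementary to the seed of miR-432-5p (CTCCAAG) were found in 102 transcripts (10.8%), and those of miR-665 (CTCCTGG) in 198 (21.0%). For miR-485-5p (CAGCCTC) and miR-299-3p (CCCACAT) the shares were 24.1% and 7.94%. In 961 tested named lncRNA transcripts, which are longer (median 829 bases, against 653), the shares were 16.0% for miR-432-5p and 26.6% for miR-665, and per kilobase the numbers were 0.0999 and 0.256 in unnamed transcripts and 0.119 and 0.267 in named ones. The median log2 fold change of unnamed transcripts was 0.19 both with and without a miR-432-5p match. With a miR-665 match it was 0.07, against 0.20 without. Among the called genes, the transcripts of ENSG00000261786, ENSG00000253217 and ENSG00000257891 held 1 match each to miR-432-5p. A match is a description of letters and not of binding, and no microRNA was measured in the tables used.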

How the data were processed

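The deposited tables hold FPKM per transcript for 6 libraries, which the authors made from rRNA-depleted, strand-keeping libraries aligned to hg38. According to the methods, reads were trimmed with Trimmomatic, aligned with HISAT2 and quantified with the Cufflinks tools, while the submitters' processing notes name CASAVA, HISAT2, StringTie and DESeq2, and which of them made the deposited FPKM is not given in the sources used here. No read numbers are given with the values, so the depth behind a value is unknown and no count test was run. FPKM is scaled to the fragments mapped in a library, so a rise of abundant transcripts lowers the others. It does not fix the sum of the values, which was 65142 to 68664.5 in A549/DDP and 58042.4 to 62589.1 in A549.

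Gene types, names, exons and neighbours were taken from GENCODE 44 (GRCh38), in which all ends of the tables lie within the chromosomes. Values were compared as log2(FPKM + 1) with limma 3.58.1 (R 4.3.3), with a variance trend, over all transcripts or gene sums at 0.5 FPKM or more in 3 libraries. The Benjamini-Hochberg adjustment covered every transcript or gene sum in the fit, and a call needed an adjusted p under 0.01 with a log2 fold change above 1 or below -1. Fold changes on this scale understate those of low genes. An exact permutation test of 3 against 3 libraries cannot go below p = 0.1. The code was tested on simulated data.

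Named are all called genes, genes with groups apart and a mean of at least 2 FPKM (up to 12 in a direction, called ones included), the 10 of highest level, their nearest coding genes, and unnamed lncRNAs next to the study's 17 genes, 12 NRF2 targets and 12 p53 targets. Others are said to have been chosen after their values were seen. The members and lists were chosen with earlier results of these data known. Alternatives were other pseudocounts, filters, scalings, weights, a replicate block and the omission of each library. Python 3.11.15, pandas 2.3.3, numpy 2.4.6 and matplotlib 3.10.9 were used for positions, sequences and figures. Some sequences and a coding neighbour are not reported here.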

Additional observations from a re-analysis of the deposited data

How the results depend on the processing

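The called genes changed with several choices. Against 12 gene sums called higher and 5 lower, a pseudocount of 0.1 gave 3 lower, and one of 0.01 gave 2 higher and 1 lower. Without a filter 3 were called higher and 2 lower, quantile normalization gave 8 higher and 10 lower, median-ratio scaling gave 8 higher and 8 lower, and an adjusted p under 0.05 gave 42 higher and 21 lower. Against 5 transcripts called higher and 1 lower, a pseudocount of 0.1 gave 2 higher, one of 0.01 and no filter each gave 0 and 0, and a filter of 2 FPKM, no variance trend and array weights each gave 2 lower. Quantile normalization and median-ratio scaling each gave 3 transcripts lower, and an adjusted p under 0.05 gave 26 higher and 16 lower. Leaving out 1 library gave 0 to 4 gene sums higher and 0 to 2 lower by limma, with 0 transcripts in either direction. With the same genes tested, an alternative chosen after seeing the data, it gave 3 to 4 gene sums higher and 2 lower. The cause of these shifts was not tested.

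The replicate block gave 4 gene sums higher and 2 lower, and 0 transcripts in either direction. Libraries of the same number did not deviate together (r between -0.0333 and 0.0149), so the numbers are not taken to pair them.

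The Pearson r between an lncRNA and its neighbour was 0.32 within 5 kb, 0.0703 for opposite strands and 0.17 without same-strand overlaps. With 1 library left out it was 0.25 to 0.32, over 501 to 559 pairs in place of 597. Over the named genes and transcripts, a call ended in 247 alternative values and was gained in 23. Of the 37 named gene sums, 1 turned its sign in an alternative: ENSG00000276232, not called, had a log2 fold change of -0.30 after quantile normalization (limma, adjusted p = 0.397), against 0.30. None of the 17 called gene sums did so. Unknown depth limits what can be said of values near 0.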

Other observations

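Some loci hold several unnamed lncRNAs. TPTE on chromosome 21 was the nearest coding gene of 17 tested ones, of which 11 had a positive log2 fold change (A549/DDP over A549) in a range of -1.001 to 1.10, and reads of these repeated sequences may be split among copies. The 6 at CCDC92 on chromosome 12 and the 5 at TTN, the gene of titin, on chromosome 2 were all positive, at 0.24 to 0.72 and 0.10 to 0.66, and those of a locus may share reads of the same host RNA. By limma, none of them was called.

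The following were chosen after their values were seen. ENSG00000275180, near MON2, a gene of membrane traffic, was at 12.3, 16.3 and 17.4 FPKM in A549/DDP, against 3.62, 5.75 and 1.78 FPKM in A549 (log2 fold change 1.87, limma adjusted p = 0.0160), and MON2 had a log2 fold change of 1.04. ENSG00000267457, within the ubiquitin ligase gene RFFL, was at 6.18, 4.85 and 5.82 FPKM in A549/DDP, against 1.14, 1.99 and 0.609 FPKM in A549 (log2 fold change 1.60, limma adjusted p = 0.0138), and RFFL had a log2 fold change of -0.68. In both the groups were apart.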
